A study of Cristatella mucedo with 12 samples.

Results

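This account follows 145 of 35949 gene models of the freshwater bryozoan Cristatella mucedo, with transcripts reduced but measurable at the edge of the colony. They were chosen on CPM, a model's count scaled to the total of its library: a mean of at least 0.5 CPM in the edge libraries, a higher edge value no more than 25% of the lower central value, and a central mean of at least 5 CPM. Models of 150000 bases or more, and models on contigs 18, 32, 37, 68 and 159, were left out, which removed 7 of the 152 that met the limits on CPM. The edge and central libraries therefore made the choice, and their values for these models are given as a description. The end, middle and statoblast libraries did not enter it.

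Bulk polyadenylated RNA was sequenced from 12 wild-type libraries of 1 isolate, SBPEP1. Mature colonies came from a stream and were kept in an aquarium at room temperature. One dissection separated an edge zone (replicates 2 and 3) from a central zone (replicates 1 and 2). The other cut elongated colonies into an end part (replicates 1 and 3) and a middle part (replicates 2 and 3). Statoblasts had been stored in a freezer. They are represented by a freezer library and by libraries from days 2, 4 and 6 of differentiation, 1 for each stage. The labels call the replicates biological, but give neither the number of colonies behind a library nor whether separate colonies were used, so p-values measure the spread between these libraries and no more. From the thawed statoblasts, whole growing colonies were taken at each of the later days.

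Bryozoans are colonies of small filter-feeding individuals, the zooids. Each carries a polypide, the part with the tentacle crown and the gut. In Cristatella the zooids share one gelatinous, creeping body, with young buds toward its margin and older polypides farther in. Statoblasts are dormant capsules of stored cells that form a new polypide when they germinate. The files do not pair the identifiers of these 145 models with gene names, so no function, cell type or pathway is given here, the tissue of each library could not be checked against marker genes, and nearly all models are described by contig and position.

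Library totals were 14787598 to 26089274 counts in mature colonies and 4738221 to 7805888 counts in the statoblast series. A count of 3, taken here as the floor of detection, stood for 0.115 to 0.203 CPM in mature libraries and for 0.384 to 0.633 CPM in statoblast libraries. Edge libraries stood apart in scale: TMM, which sets libraries to a common level over most models, gave them factors of 0.756 and 0.832, against 0.957 to 1.14 in the other 6 mature libraries. With CPM from such scaled totals 93 models met the rule, 89 of them among the 145. The 16 mitochondrial models, the only named ones, took 12.8% and 9.78% of counts in edge replicates 2 and 3 and 15.5% and 15.4% in central replicates 1 and 2. They took 9.54% to 9.79% in the 3 libraries numbered 3 and 12.8% to 15.6% in the other 5 mature libraries. With totals taken without them 164 models met the rule. Whether these shifts have a part in the lower edge values was not tested.

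The members covered a wide range of abundance, and most kept a small share of their central level at the edge. The median member stood at 3.87 and 5.08 CPM in the edge libraries, against 40.4 and 38.2 CPM in the central libraries. The edge mean was 13.3% of the central mean at the median, with quartiles of 10.4% and 16.2% and a range of 0.631% to 21.8%. For all 11028 models with a central mean of at least 5 CPM that median was 75%, and the 145 members made up 1.31% of those models. In bulk RNA, fewer cells of one kind and less RNA per cell cannot be told apart. Together the members held 0.254% ± 0.0128 of counts at the edge and 1.83% ± 0.0739 in the centre (SD, n = 2 each).

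**Figure D1:**
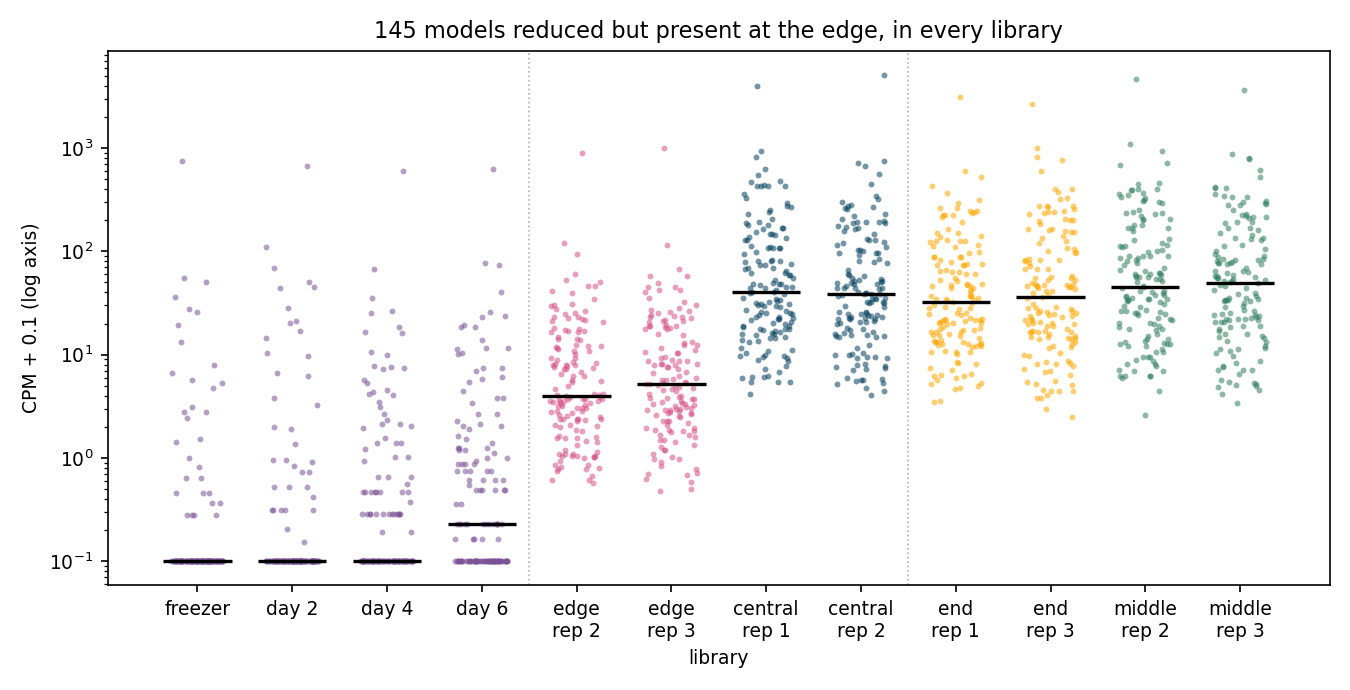
Each point is 1 of the 145 members, on a log axis of CPM + 0.1, and each black line is the median of the members in that library. The statoblast medians lie at or near 0 CPM, the edge medians at 3.87 and 5.08 CPM, and the medians of the other 6 mature libraries between 32 and 49.0 CPM.

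At the edge 16 members had a mean under 1 CPM, 86 a mean from 1 to under 10 CPM, and 43 a mean of 10 CPM or more. In the centre 19 members were under 10 CPM, 83 from 10 to under 100 CPM, and 43 at 100 CPM or more. The most abundant was g16635 on contig 138 (bases 132090 to 170880). It had 908.0 and 1004 CPM in the edge libraries, against 4029 and 5117 CPM in the central libraries, so that its edge mean of 955.9 ± 67.8 CPM was 20.9% of its central mean of 4573 ± 769.1 CPM (SD, n = 2 each). It was also the highest member in each of the 8 mature libraries. A model shortly before it on contig 138 (bases 114984 to 117670) had 201.9 and 193.7 CPM at the edge and 749.6 and 885.7 CPM in the centre. That kept it outside the limit of 25%. The second most abundant member, on contig 284 (bases 11193 to 20109), had 121.7 and 115.0 CPM at the edge, against 940.0 and 759.2 CPM in the centre. Both libraries of each zone were close together for these models.

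The limits of the rule cut through a continuous range. Just inside the limit of 25%, a member on contig 23 (bases 3994707 to 3995669) had a ratio of 24.95% between its higher edge and lower central value, and the next model outside had 25.3%. That model is its direct neighbour (bases 3987942 to 3994685). The lowest edge mean inside was 0.563 CPM on contig 55, and the highest one outside was 0.493 CPM, again on contig 23. The lowest central mean inside was 5.39 CPM on contig 1, and the nearest outside was 4.67 CPM on contig 38. A limit of 33.3% in place of 25% took in 255 models, and a limit of 12.5% took in 26.

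Not all members had even replicates. The central libraries lay within 2-fold of each other for 130 members, and the edge libraries for 134. The share over all models was not computed for these counts. Replicate 2 was more than 2-fold above replicate 1 in the centre for 6 members, and these included the 4 members with the lowest edge mean relative to the central mean. On contig 110 (bases 778516 to 788714) one had 1.36 and 2.15 CPM at the edge, against 107.3 and 449.7 CPM in the centre. A second on the same contig (bases 803436 to 809391) had 0.885 and 0.806 CPM at the edge, against 43.7 and 197.7 CPM in the centre. Another, on contig 40 (bases 2015718 to 2018407), had 4.56 and 1.69 CPM at the edge, against 145.9 and 716.0 CPM in the centre, and it overlaps another model. Edge means of these 3 members were 0.631% to 0.725% of their central means.

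In the same 6 members, end part replicate 3 stood above replicate 1, by 1.38 to 5.08-fold, and for 4 of them by more than 2-fold. Their middle libraries lay within 2-fold of each other. The model on contig 40 had 237.4 and 1002 CPM in the end libraries, against 715.2 and 880.6 CPM in the middle libraries. The second model on contig 110 had 47.2 and 239.7 CPM in the end libraries, against 179.5 and 216.9 CPM in the middle. For these 3 models the libraries numbered 1, one central and one from the end part, were the lowest of the 6 central, end and middle libraries. The 9 members with central replicate 1 more than 2-fold above replicate 2 had end part replicate 3 below replicate 1 in 8 cases. For the 6 and for the 9 members, the share over all equally uneven models was not computed. Over all 145 members, the log2 ratio of the central libraries and that of the end libraries correlated at Pearson's r = 0.533 and Spearman's rho = 0.555. Over 11027 models with a central mean of at least 5 CPM these were 0.337 and 0.514. Both ratios have a library numbered 1 as their denominator, and models are not independent replicates.

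**Figure D2:**
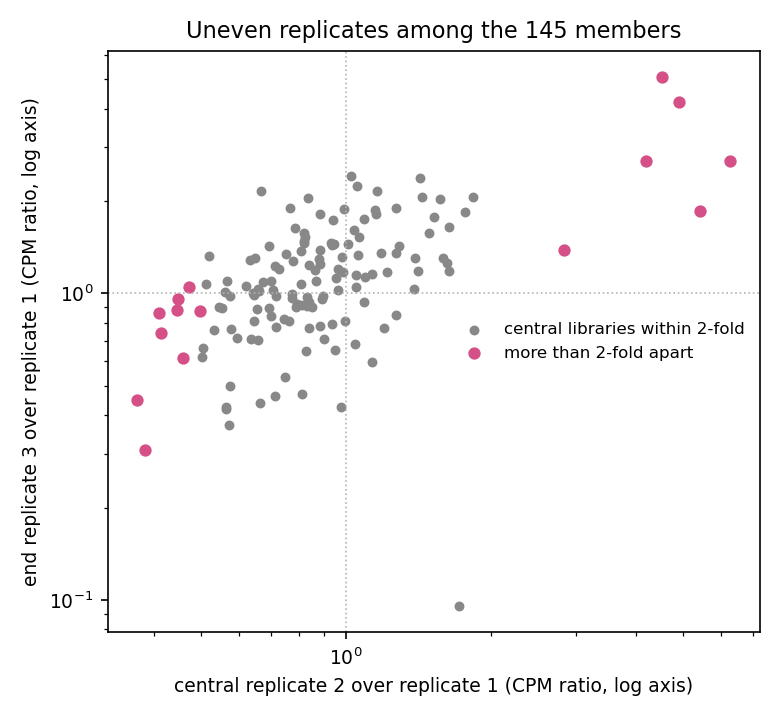
Each point is 1 of the 145 members, placed by the CPM ratio of central replicate 2 to replicate 1 and by that of end replicate 3 to replicate 1, both on log axes. The 6 points on the right, with central ratios of 2.84 to 6.26, all lie above 1 for the end part.

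The next comparison asked whether the members also varied along elongated colonies, with the end part set against the middle part. They were slightly lower at the ends as a rule, and 1 passed the test. The median member stood at 32 and 36 CPM in the end libraries, against 44.9 and 49.0 CPM in the middle libraries. The end mean was 77.0% of the middle mean at the median, with quartiles of 65.9% and 83.6%. Together the members held 1.48% ± 0.188 of counts in the end part and 2.01% ± 0.150 in the middle part (SD, n = 2 each).

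Of the 145 members, all of which passed the filter on low counts, 1 was lower at the ends by the quasi-likelihood test of edgeR, with Benjamini-Hochberg adjustment over 18085 models and a threshold of 0.05, where 0.0166% of all models were called lower. None was called higher by edgeR, where 0.326% of all models were, and the DESeq2 Wald test called 4 lower and 0 higher, where it called 0.199% and 1.46% of all models. At an unadjusted p under 0.05 edgeR had 38 members lower and 3 higher, against 4.89% and 8.05% of all models. The fitted log2 fold change of end over middle was below 0 for 132 of the 145 members, against 48.8% of all models. Its median was -0.42 over the members, with quartiles of -0.66 and -0.30, and 0.01 over all models. Both end libraries lay below both middle libraries in CPM for 82 members, which is 56.6% against 18.7% of all models tested, and above them for 5 members, which is 3.45% against 26.3%. With end part replicate 3 left out, 15 members were called lower and 4 higher, and calls over all models were also more frequent, at 1.78% lower and 3.92% higher. The count of members called lower was 0 without edge zone replicate 2 or 3, end part replicate 1, or middle part replicate 2 or 3, and 2 without central zone replicate 1 or 2. The median log2 fold change ran from -0.56 to -0.30 over the 8 fits that left out 1 library. The reported fit took its spread from all 8 mature libraries, the edge and central ones included. On the end and middle libraries alone, edgeR called 1 member lower and 0 higher, where 11 lower and 42 higher were called of 17381 models.

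**Figure D3:**
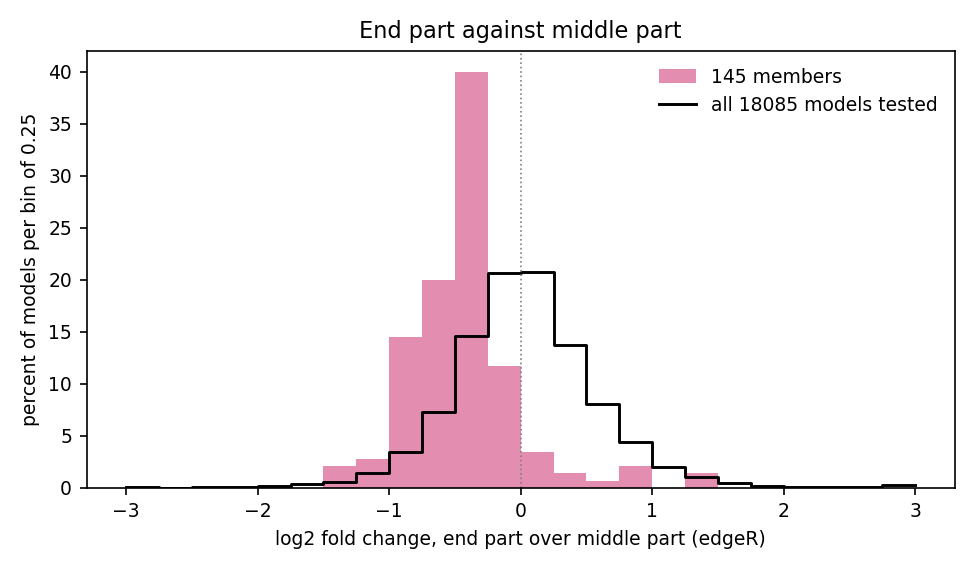
Percent of models per bin of 0.25 in the log2 fold change of end part over middle part, for the 145 members (filled bars) and for all 18085 models tested (line), with values beyond -3 or 3 in the outermost bins. The members peak in the bin from -0.5 to -0.25, with a median of -0.42, while the median of all models is 0.01.

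The member that passed was g28369 on contig 50 (bases 559849 to 613680). It had 24 and 24.8 CPM in the end libraries, against 66.3 and 64.0 CPM in the middle libraries, and 6.15 and 4.92 CPM at the edge, against 29.2 and 40.5 CPM in the centre. The end and middle libraries did not overlap, and its central level was below its middle level. Expressed as log2, end over middle was -1.46 (SE 0.28, edgeR adjusted p = 0.0383). The adjusted p was 0.0806 without either edge library, 0.236 without end part replicate 1, and 0.347 and 0.131 without middle part replicates 2 and 3, and over all 14 alternatives it ran from 0.000101 to 0.347 with a log2 fold change of -1.55 to -1.17.

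The next largest differences between end and middle did not pass. A member on contig 28 (bases 1510100 to 1524041) had 12 and 19.9 CPM in the end libraries, against 32.4 and 51.2 CPM in the middle libraries (log2 fold change -1.41, SE 0.35, edgeR adjusted p = 0.124). Neighbouring members on contig 156 (bases 429222 to 436320, and 436706 to 438315) had log2 fold changes of -1.27 (SE 0.36, edgeR adjusted p = 0.187) and -1.14 (SE 0.32, edgeR adjusted p = 0.186). On the other side, a member on contig 15 (bases 6220622 to 6236677) had 46.0 and 14.1 CPM in the end libraries, against 10.6 and 11.2 CPM in the middle libraries (log2 fold change 1.41, SE 0.49, edgeR adjusted p = 0.268). Its end libraries were far apart from each other. A member on contig 54 (bases 1977237 to 1995827) had the widest spread within the end part as a ratio, at 24.9 and 2.37 CPM, against 2.51 and 8.19 CPM in the middle.

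Set side by side, the 4 mature groups differed in which held the highest mean. The edge zone had the lowest mean for all 145, as it did for 60.2% of the models with a central mean of at least 5 CPM, and the rule had required it to lie below the centre. The highest mean was in the middle part for 89 members, in the central zone for 50 and in the end part for 6. The central values had taken part in the choice. Every edge value lay below every end and middle value for all 145 members, against 48.4% of those models, and for 93 members the higher edge value was at most 25% of the lowest of the 4 end and middle values, against 1.66% of those models. Both counts rest on the edge values by which the members were chosen. No member met that limit for the end part against the middle part. The end mean was within 2-fold of the middle mean for 137 members. For the highest mean and for these counts of end against middle, the share over all models was not computed.

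Statoblasts were compared with elongated colonies to see at what level the members stood in the freezer library and in the colonies that grew from statoblasts. Most were at or near 0. The median member stood at 0 CPM in the freezer library, at day 2 and at day 4, and at 0.128 CPM at day 6. In the freezer library 113 of the 145 members had no count, at day 2 108, at day 4 81 and at day 6 59. No count at all was found in any stage for 55 members, and 99 were under 1 CPM in every stage, which is 68.3% against 12.6% of the 11028 models with a central mean of at least 5 CPM. At these depths a count of 0 allows up to 0.384 to 0.633 CPM. The number of members at 1 CPM or more was 19 in the freezer library, 20 at day 2, 33 at day 4 and 42 at day 6. These are 13.1%, 13.8%, 22.8% and 29.0% of members, against 75.6%, 77.0%, 84.3% and 86.0% of those 11028 models. The share of those models thus also rose from day 2 to day 4. The day 6 library was also the deepest of the 4.

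Of all counts, the freezer library gave the members 0.102%, with a 95% Wilson interval of 0.0997% to 0.105%. The day 2 library gave them 0.115% (interval 0.112% to 0.118%), the day 4 library 0.0918% (interval 0.0893% to 0.0944%) and the day 6 library 0.112% (interval 0.109% to 0.114%). These intervals cover counting error only. Most of that was 1 model, g4794 on contig 8 (bases 1143014 to 1150700). It made up 56.7% to 72.9% of the members' sum. Without it the members summed to 277.3, 472.3, 318.8 and 484.1 CPM in the freezer, day 2, day 4 and day 6 libraries.

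In the test of the 4 statoblast libraries against the 4 elongated colony libraries, 137 members were lower, where 47.5% of 16009 models were called lower, and 3 were higher, where 29.1% were called higher (edgeR, adjusted p under 0.05). All 145 members passed the filter, and all were at 1 CPM or more in each of the 4 elongated libraries. Only 17 were at 1 CPM or more in every statoblast stage, so most passed through the elongated colonies alone. Of the 145, 105 had 10 or more counts in no stage and were bound to differ. The counts of members called lower or not overlapping are therefore a description and no support. All 4 stages lay below all elongated libraries in CPM for 134 members, where 38.1% of all models did, and above them for 3, where 36.5% did. The count of 3 higher was found under all 13 alternatives, and the count lower ran from 132 to 139. Over all models the split moved with the scaling, with 4655 higher and 7599 lower as reported and 6253 higher and 6169 lower by library totals alone, where 3 members were higher and 133 lower. Counts with a fraction other than 0.5 made up 6.29% to 7.72% of the models detected in statoblast libraries, against 26.6% to 31.9% of those detected in elongated colonies. For members the ranges were 0% to 8.11% and 48.3% to 66.9%. Their part in the difference was not tested.

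The largest fitted fall in statoblasts was that of g16635, the most abundant member in mature colonies. It had 0 counts in every statoblast stage, against 3164 and 2694 CPM in the end part and 4731 and 3635 CPM in the middle part, and it passed the filter through the elongated colonies alone, so its call is no support. With 3 counts per library taken as the floor, statoblasts were at least 6756-fold lower when set against the elongated mean, and at least 4255-fold lower when set against the lowest elongated library. A pair of models at its side on contig 138 were also at 0 in all stages. Over the 55 members without any statoblast count, the bound by the mean ran from 9.13-fold to 6756-fold with a median of 69.1-fold.

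The 3 members that were higher in statoblasts were g4794, g5450 and a model on contig 113. The first, g4794, stood at 746.3, 674.0, 599.2 and 633.8 CPM in the freezer, day 2, day 4 and day 6 libraries, against 66.1 and 47.0 CPM in the end part and 86.0 and 63.7 CPM in the middle part. It was at 7.78 and 5.84 CPM at the edge and at 69.1 and 44.0 CPM in the centre, so that its statoblast level stood above every mature library. Statoblasts over elongated colonies came to a log2 of 2.74 (SE 0.26, edgeR adjusted p = 1.41e-05). The second, g5450 on contig 8 (bases 8441450 to 8442480), stood at 50.8, 111.2, 67.4 and 77.5 CPM over the stages, against 20.1 and 25.3 CPM in the end part and 11.1 and 24.2 CPM in the middle part. The log2 ratio was 1.36 (SE 0.31, edgeR adjusted p = 0.00255), and its edge values of 1.24 and 0.480 CPM were 4.42% of its central mean. The model on contig 113 (bases 1165933 to 1166546), stood at 27.8, 45.2, 26.3 and 25.9 CPM over the stages, against 9.77 to 12.7 CPM in the elongated libraries (log2 fold change 0.84, SE 0.24, edgeR adjusted p = 0.00976). It overlaps another model, and its level is uncertain. All 3 were present in the freezer library and kept a high level to day 6.

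**Figure D4:**
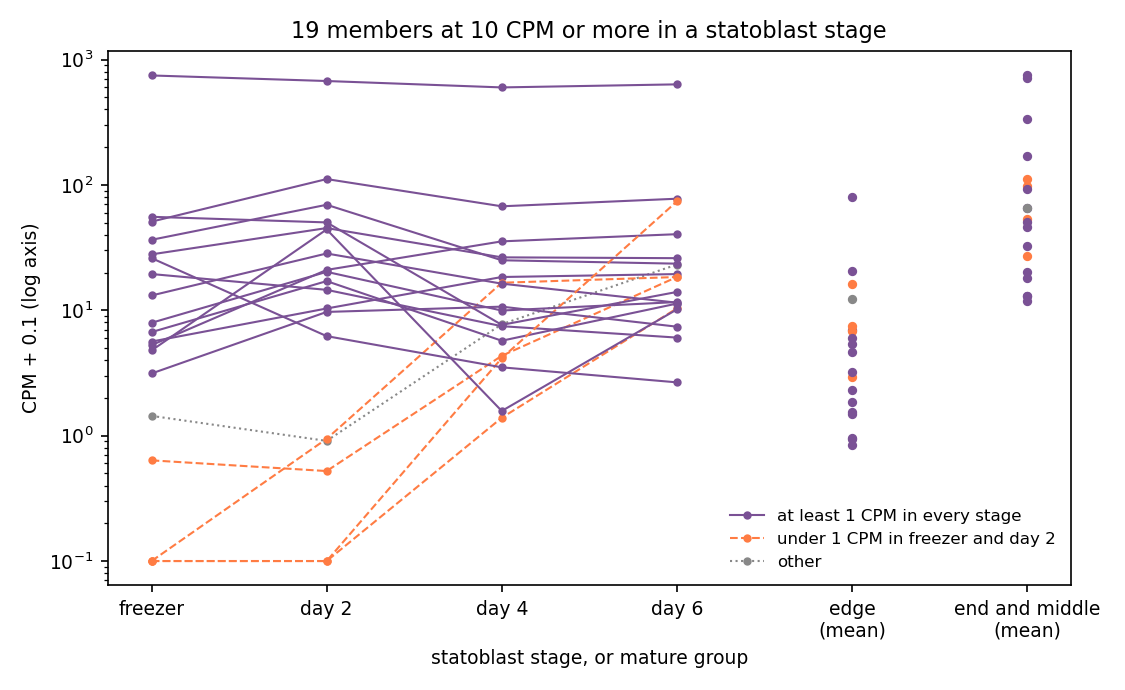
The 19 members with at least 10 CPM in a statoblast stage, as CPM + 0.1 on a log axis over the 4 stages (1 library each), with the mean of the 2 edge libraries and the mean of the 4 end and middle libraries as points. The top line is g4794 at 599.2 to 746.3 CPM, and the dashed lines start under 1 CPM and reach 10.2 to 73.7 CPM at day 6.

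By their course over the stages the members fell into unequal classes. At 1 CPM or more in every stage were 17 members. Under 1 CPM in the freezer and day 2 libraries, but at 1 CPM or more at day 4 or 6, were 24 members. Shares of all models in these classes were not computed. Of the other 5 beside the 99 under 1 CPM throughout, one on contig 13 (bases 1345795 to 1347849) stood at 1.34, 0.808, 7.64 and 23.1 CPM. The mean over stages exceeded the edge mean for 14 of the 17, 4 of the 24, 1 of the other 5 and 0 of the 99. The rule had kept the edge mean low and statoblast values set the classes, so these counts are a description. In the class of 24 the end mean was 68.9% of the middle mean at the median, in the class of 99 it was 78.3%, in the class of 17 it was 79.8%, and in the other 5 it was 63.9%. At the median the edge mean was 13.1% of the central mean in the class of 24 and 13.5% in the class of 99. It was 10.8% in the class of 17 and 18.2% in the other 5.

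Among the members that appeared late, one on contig 103 (bases 784355 to 788482) had 0 CPM in the freezer and day 2 libraries, 4.05 CPM at day 4 and 73.7 CPM at day 6. In elongated colonies it stood at 88.3 and 108.5 CPM in the end part and 120.8 and 132.0 CPM in the middle part, all above its day 6 level. One on contig 20 (bases 1276016 to 1286922) had 0.535, 0.422, 4.24 and 18.3 CPM over the stages. Another, on contig 26 (bases 921479 to 955887), had 0, 0.844, 16.5 and 18.3 CPM, against 29.0 and 18.9 CPM in the end part and 30.7 and 29.5 CPM in the middle part. It overlaps a second, shorter member. On contig 11 (bases 7998628 to 8009951) the values were 0, 0, 1.29 and 10.2 CPM. Of the 24, 7 reached 5 CPM by day 6.

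A linear trend over the stages could be tested for 26 members with at least 10 counts in 2 libraries, and 119 were too low. Only the member on contig 103 was called, with a slope of 2.20 log2 units per day (SE 0.13, edgeR adjusted p = 0.0244), where 0.0501% of 11972 models were called rising. The member had 0 counts in the freezer and day 2 libraries. It passed the filter through days 4 and 6 alone, so its call is no support. None of the 26 was called falling by edgeR, where 0% of all models were, and 9 rising and 3 falling members had an unadjusted p under 0.05, where 15.8% and 12.1% of all models did. Most of the 9 had under 10 counts in both the freezer and day 2 libraries. Those members passed the filter through days 4 and 6 alone, so the count of rising members is a description and no support. Without the freezer library the adjusted p of the member on contig 103 was 0.414, and without the day 6 library it could not be tested. The slopes of g4794 and g5450 were -0.06 (SE 0.04) and 0.02 (SE 0.09), with edgeR adjusted p = 0.386 and 0.892. On contig 110 both members with uneven central libraries went the other way from the late ones, at 55.6, 50.1, 7.55 and 13.9 CPM and at 26, 6.12, 3.41 and 2.56 CPM over the stages (slopes -0.43, SE 0.13, and -0.58, SE 0.10; edgeR adjusted p = 0.115 and 0.0607).

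The members lay on 63 of 547 contigs, with 10 each on contigs 1 and 8, 9 on contig 2 and a single one on 26 contigs. In 16 places 2 or more members were neighbours, at most 2 models apart, and these places held 38 members. How often other models lie this close was not computed. In 5 of the 16 the members overlap and count as 1 locus, and the other 11 places held 28 members. In 3 places there were 4 separate loci. The gene models were of 356 to 91689 bases, with a median of 7687 bases, against 15422 bases for models with a central mean of at least 5 CPM. Overlap with another model was found for 37 members (25.5%, against 29.2% of those models), and every member had a fractional count in at least 1 library, as did 99.9% of those models. Levels are therefore uncertain where copies share reads.

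On contig 2 (bases 8304340 to 8353615), 4 members of similar length, 2281 to 2789 bases, followed each other with no other model between them. Their edge means were 35.9, 20.6, 24.4 and 14.5 CPM in order along the contig, against 399.6, 314.1, 367.3 and 404.6 CPM in the centre. The SD between the 2 central libraries was 111.0, 169.8, 143.7 and 205.0 CPM for these 4. The last had the lowest edge share at 3.59%. In the end part they had 309.1 ± 19.6, 210.4 ± 18.2, 260.6 ± 16.9 and 269.2 ± 8.69 CPM, against 369.9 ± 33.2, 260.9 ± 70.9, 319.3 ± 51.6 and 349.2 ± 61.6 CPM in the middle part (SD, n = 2 each). In statoblasts the 4 together were listed with at most 1 count in a stage.

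On contig 10 (bases 4999357 to 5110597), 4 members of 6611 to 30022 bases were neighbours. The first had 53.0 and 49.6 CPM at the edge, against 629.5 and 556.6 CPM in the centre, and the other 3 had edge means of 22.0 to 24.3 CPM, against central means of 163.2 to 191.8 CPM. On contig 8 (bases 5373154 to 5494603), 4 members of 17575 to 21206 bases had edge means of 1.80 to 19.1 CPM, against central means of 20.6 to 121.3 CPM. The edge share within this place was 8.70% to 15.8%. The first of the 4 was the only one of them at 1 CPM or more in every statoblast stage, at 2.32, 1.90, 2.03 and 1.41 CPM. A pair of members on contig 72 (bases 1339597 to 1362886) had edge means of 26.9 and 29.2 CPM, against central means of 253.4 and 188.9 CPM.

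**Figure D5:**
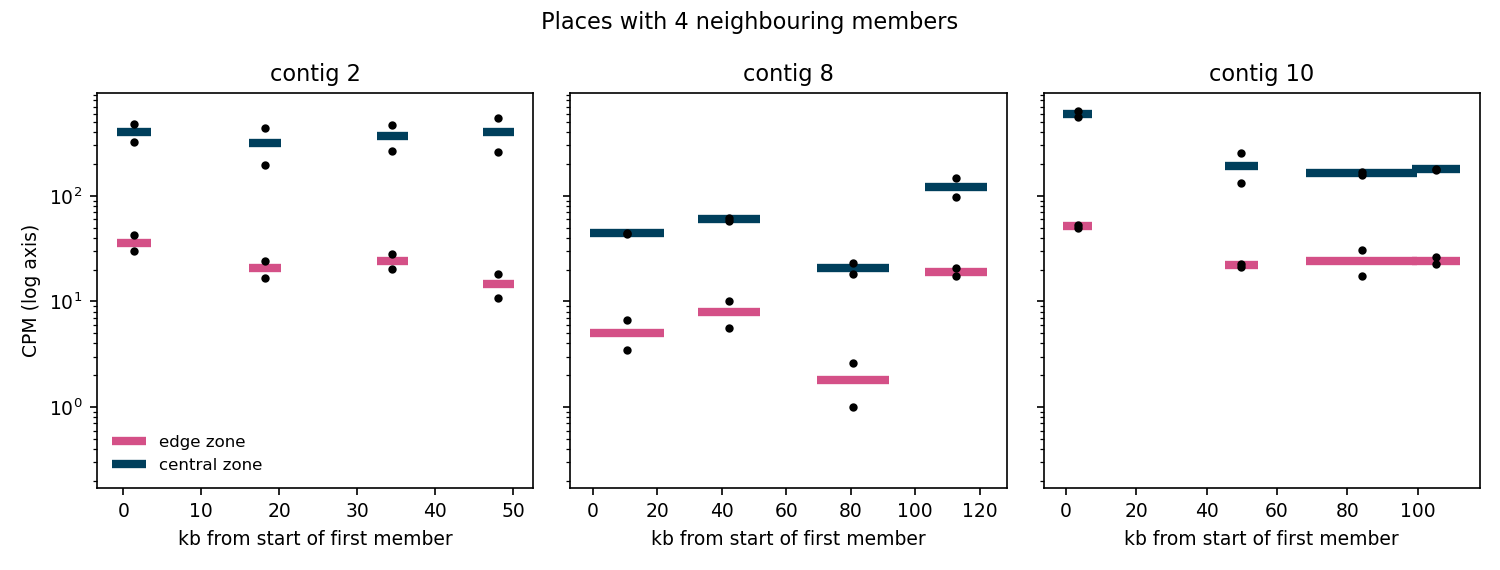
Edge mean (pink) and central mean (dark blue) in CPM, on a log axis, of the 4 neighbouring members on contigs 2, 8 and 10, drawn over the span of each model in kb from the start of the first, with black points for the 2 libraries of each zone. The edge means are 14.5 to 35.9 CPM on contig 2, against central means of 314.1 to 404.6 CPM.

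For the 4 models given by identifier, the models with the most similar course were sought over the 8 end, middle and statoblast libraries, by Pearson's r of log2(CPM + 0.5) among 15585 models with a mean of at least 1 CPM. The 3 nearest to g16635 were the model shortly before it on contig 138 (bases 114984 to 117670), a member on contig 16 (bases 5238554 to 5239190) and a member on contig 67 (bases 1474195 to 1477296). Their correlations differ from 1 only beyond the third decimal. The 3 nearest to g28369 lay on contigs 1, 59 and 8 (r = 0.993 to 0.994), those nearest to g4794 on contigs 13, 4 and 25 (r = 0.997) and those nearest to g5450 on contigs 12, 41 and 2 (r = 0.988 to 0.990). None of the last 9 was a member. These correlations describe 8 libraries that fall into a statoblast and a colony set.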

How the data were processed

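Polyadenylated RNA was made into libraries with a directional kit and sequenced paired-end or single-end on Illumina instruments, per the labels' protocols. The sources used here do not give which library was run in which way, nor the assembly, annotation or strand. Tools named by the submitters' processing notes are HISAT2 2.1.0 and featureCounts 1.5.1. Expected counts for every gene model, partly fractional and without normalization, are what the authors deposited, in a single table. Expected counts were rounded (no total moved by more than 0.00408%) and tested in R 4.3.3 by the quasi-likelihood test of edgeR 4.0.16, with TMM scaling, filterByExpr and a Benjamini-Hochberg threshold of 0.05. SE is the absolute log2 fold change over the square root of F. End against middle was fitted over 8 mature libraries with 4 group means, statoblasts against elongated colonies over 8 libraries, and the slope over 4 stages with the freezer library as day 0. DESeq2 1.42.0 gave the Wald test. CPM, summaries and figures used Python 3.11.15, pandas 2.3.3, numpy 2.4.6, scipy 1.17.1 and matplotlib 3.10.9. Each fit was checked on simulated data. Of simulated 2-fold changes, 18% were called for end against middle, 71% for statoblasts against elongated colonies and 13% for the slope. Of 4-fold changes, these shares were 99%, 100% and 75%. For the slope the fold was the whole change over 6 days. No mature group held the same library under 2 labels, as its libraries differed beyond counting noise (chi-square of 28.7 to 50.3 per model).

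The members and the comparisons were chosen with earlier results of these data known. Identifiers were printed for the 2 largest falls and the 2 largest rises past the threshold with groups that do not overlap, taken from end against middle first and then from statoblasts. Single positions beyond the neighbouring places and the limits of the rule were chosen after their values were seen, as were the 1 CPM classes and the 2-fold limit for uneven replicates. Alternatives were other scalings, DESeq2, no filter, other limits, a replicate term and leaving out each library in turn (for the slope, the freezer and day 6 libraries).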

Additional observations from a re-analysis of the deposited data

Results flagged for a closer look

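Of 14 groups of 4 libraries examined for a single library far from the other 3, chance puts about 1 in 20 past the limit, and 2 passed. The median CPM of the 145 members was 0.128 at day 6, while the other 3 statoblast stages had a median of 0. That value is below the day 6 floor of 0.384 CPM. With the others tied at 0, any value above 0 would have passed, so the rate of 1 in 20 does not apply to it. The level of g28369 was 3.72 CPM at day 6, against 0 CPM at day 4 and in the freezer library, and 0.422 CPM at day 2. The day 6 library was also the deepest of the statoblast series at 7805888 counts.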

How the results depend on the processing

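The number of models that met the rule was 255 with a limit of 33.3%, 26 with a limit of 12.5% and 93 with CPM from TMM-scaled totals, against 145, and it stayed within 1.5-fold for the other 3 alternatives. For end against middle, members called lower were 1 in the reported fit, 4 with the DESeq2 Wald test (36 lower and 264 higher of 18085 models in all) and 7 without a filter on low counts, where 2 were called higher (207 lower and 474 higher of 28161 models). Leaving out 1 library gave 0 to 15 lower and 0 to 4 higher, the highest counts without end part replicate 3, and medians of -0.56 to -0.30 against -0.42. The median stayed below 0 in all 14 alternatives. For the slope, no filter gave 11 rising and 2 falling members (998 rising and 293 falling of 21059 models, against 6 and 0 of 11972 as reported), and leaving out the freezer or day 6 library gave 0 to 1 rising and 0 to 2 falling. Statoblasts against elongated colonies gave 132 to 139 members lower and 3 higher in all 13 alternatives. The cause of these shifts was not tested. Library totals alone moved the median of all models in that comparison from -0.57 to 0.01, with 133 members lower.

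Deviations of same-numbered libraries correlated at -0.151 to 0.335, above 0.1 in 5 of 7 pairs. Within a group of 2 libraries the deviations mirror each other, so the pairs are not independent. Both pairs of edge and middle libraries hold the same value, 0.125. The mitochondrial share was 9.54% to 9.79% in the libraries numbered 3 and 12.8% to 15.6% in the other mature libraries. Correlations did not pass 0.1 in every pair, and no label ties the numbers to a shared source. The numbers were therefore not taken as pairing the libraries, although some libraries of one number varied together and pairing is not excluded. With a replicate block, 1 member was lower and 0 were higher at the ends, with g28369 at -1.17 (edgeR adjusted p = 0.0396). Depth limits statoblast values under 0.384 to 0.633 CPM.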
